A study of Mus musculus with 22 samples.

Results

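The genes described here are Dppa2, Dppa3, Dppa4, Dppa5a, Tcl1, L1td1, Ooep and Khdc3, a group of transcripts known from the early mouse embryo and from naive embryonic stem cells. They were chosen by symbol, as the rows of the gene count table whose name equals 1 of these 8 symbols, and each symbol gave 1 row, so 8 of 34489 genes are described in all 22 libraries. Bulk mRNA was sequenced from mouse cells that the study took from the primed to the naive state of pluripotency with activators of the energy sensor AMPK. Every library is labelled as epiblast tissue, while the material is cell lines, grown in the d8 and d16 cultures on feeder cells.

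The naive reference is 1 library of mESCs (strain 129/Ola) of a Rex1-GFP line, which carries GFP under the Rex1 (Zfp42) gene and was kept in 2iL, the inhibitors PD0325901 and CHIR99021 with the cytokine LIF. The primed group is 2 libraries of mEpiSCs kept in FGF2 and Activin A. One is Oct4GIP (129/Ola), which carries a GFP and puromycin-resistance transgene driven by Oct4 sequences. The other is 129/MSM, from a cross of the strain MSM/Ms with 129X1/SvJ. Oct4GIP cells were then plated on mouse embryonic fibroblast (MEF) feeders in 1 of 4 media, namely Basal, 2iL, AICAR (an AMPK activator) or AICAR+LIF, and the whole cultures were sampled on day 8 (d8, 4 libraries) and day 16 (d16, 4 libraries). Bulk cells of day 16 were moved to 2iL and sampled after 2 or 3 passages (d16+2p and d16+3p, AICAR and AICAR+LIF at each, 4 libraries) or after 10 passages (d16+10p, 7 libraries). At d16+10p Oct4GIP is present with 5 treatments. A769662 and metformin, other AMPK activators, were used there beside AICAR: AICAR and A769662 each without and with LIF, and metformin with LIF. The line 129/MSM is present with AICAR and with AICAR+LIF.

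No condition has a replicate library, so libraries of 1 state serve as its samples, and every p-value measures the spread between these particular libraries. The d16+10p group also holds treatments and a line that the d16+2-3p group lacks. Reverted cells had been carried in 2iL, so the effect of the AMPK activator and that of 2iL cannot be told apart in them. Total counts ran from 438771 (AICAR+LIF d8) to 5290163 (Basal d16). Levels are given as CPM, counts relative to the library total after scaling by TMM. A count of 0 allows up to 3 counts, which equals 5.75 CPM for AICAR+LIF d8 and 0.556 CPM for Basal d16. Such floors, and the intervals given with ratios, cover the counting error of reads only and leave out the spread between libraries. The interval of a ratio uses the counts of the group compared against, with the other level held fixed. The reads carry no molecular identifiers.

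The label of the cells was checked against marker genes. The 8 shared pluripotency genes (Pou5f1, Sox2, Nanog and others) summed to 2829 CPM in the naive library, to 2212 and 1909 CPM in the primed libraries, and to between 2235 and 3728 CPM in the 11 reverted libraries. In the 8 cultures of d8 and d16 the same sum was between 145 and 330 CPM, and Sox2 was its most abundant gene in each of them. The 10 feeder and fibroblast markers summed to 3045, 3132, 2985 and 2586 CPM at d8 (Basal, 2iL, AICAR, AICAR+LIF) and to 5389, 49927, 16308 and 18367 CPM at d16, with Col1a1 or Col3a1 the most abundant. They summed to 17.3 CPM in the naive library, 32.1 CPM in primed Oct4GIP, 534 CPM in primed 129/MSM, and between 6.56 and 91.2 CPM in the reverted libraries. The tissue label therefore fits the primed, naive and reverted libraries, while in the d8 and d16 cultures pluripotency genes were low and fibroblast genes were high.

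Dppa genes were named for transcripts linked to developmental pluripotency. DPPA2 and DPPA4 are chromatin proteins with a DNA-binding SAP domain that act together and are known as activators of genes of the 2-cell embryo, DPPA3 (also Stella) restrains the upkeep of DNA methylation by UHRF1, and DPPA5A, OOEP and KHDC3 are relatives of RNA-binding KH-domain proteins, of which OOEP and KHDC3 sit in the subcortical maternal complex of the egg. TCL1 is a coactivator of the kinase AKT, and L1TD1 is an RNA-binding protein that descends from the first open reading frame of the LINE-1 retrotransposon.

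The coding sequences were 348 bases for Tcl1, 354 for Dppa5a, 450 for Dppa3, 492 for Ooep, 888 for Dppa4, 903 for Dppa2, 1320 for Khdc3 and 2346 for L1td1 (GENCODE M21, genome build GRCm38). Tcl1 and Dppa5a were the shortest, and L1td1, with 782 codons, does not code for a small protein. Dppa2 (chr16:48303908-48319723, plus strand) and Dppa4 (chr16:48283733-48294237, plus strand) lie 9671 bases apart, and Dppa5a (chr9:78367052-78368177, minus strand) and Ooep (chr9:78376109-78378725, minus strand) lie 7932 bases apart. Khdc3 (chr9:73101836-73104438, plus strand) lies elsewhere on the chromosome of Dppa5a and Ooep and overlaps the gene Gm20509. Dppa3 is at chr6:122626410-122630272 (plus strand), Tcl1 at chr12:105216750-105222793 (minus strand) and L1td1 at chr4:98726734-98738480 (plus strand).

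Several members share sequence with other annotated genes, which matters for how reads are assigned. Of the windows of 79 bases, the read length, along each member's transcript, the share found exactly in a transcript of another gene was 40.0% for Khdc3 (all with Gm20509, which overlaps it), 25.5% for Dppa2, 21.9% for Dppa4, 17.0% for Dppa5a, 2.52% for Dppa3, and 0 for Tcl1, L1td1 and Ooep. Rows for these genes had counts as well. Over the 12 naive and reverted libraries Gm20509, at the same locus, had 14.3% to 31.6% of the Khdc3 count, and of the copies elsewhere Gm14058 had 4.96% to 19.4% of that of Dppa4, Gm9788 6.54% to 18.4% of that of Dppa2, and Gm6798 2.83% to 5.60% and Gm15310 2.97% to 4.18% of that of Dppa5a. Of the copies of Dppa5a, Dppa5b and Dppa5c are shown because they carry its name, not because their share is the largest. These pseudogenes are identical to each other over their 348 bases and match the Dppa5a coding sequence at 92.1% of 341 aligned bases. The lines below give coding bases 120 to 239 of Dppa5a (chr9:78367780-78367899, minus strand) and the matching stretches of Dppa5b (chr9:78245750-78245869, plus strand) and Dppa5c (chr9:78272198-78272317, plus strand), all GRCm38, with capitals at the bases that differ.
Dppa5a: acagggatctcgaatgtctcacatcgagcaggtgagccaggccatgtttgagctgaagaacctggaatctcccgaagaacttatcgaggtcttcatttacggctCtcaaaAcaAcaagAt
Dppa5b: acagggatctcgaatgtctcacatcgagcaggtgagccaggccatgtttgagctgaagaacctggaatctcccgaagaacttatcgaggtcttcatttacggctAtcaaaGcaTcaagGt
Dppa5c: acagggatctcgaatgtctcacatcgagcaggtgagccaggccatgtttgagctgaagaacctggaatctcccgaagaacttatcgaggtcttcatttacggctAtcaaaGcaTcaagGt
The substitutions are C224A, A230G, A233T and A238G, with positions counted from 1 at the first coding base of Dppa5a.

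Both rows moved with Dppa5a. Dppa5b had 1.53% to 2.72% and Dppa5c 1.55% to 3.07% of the Dppa5a count in the 12 naive and reverted libraries, and both were at 0 counts in the primed libraries and in the cultures of d8 and d16. A long shared stretch precedes the differing bases, so reads from 1 of these genes can be placed on another, and how much of the pseudogene counts came from Dppa5a was not tested.

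**Figure D1:**
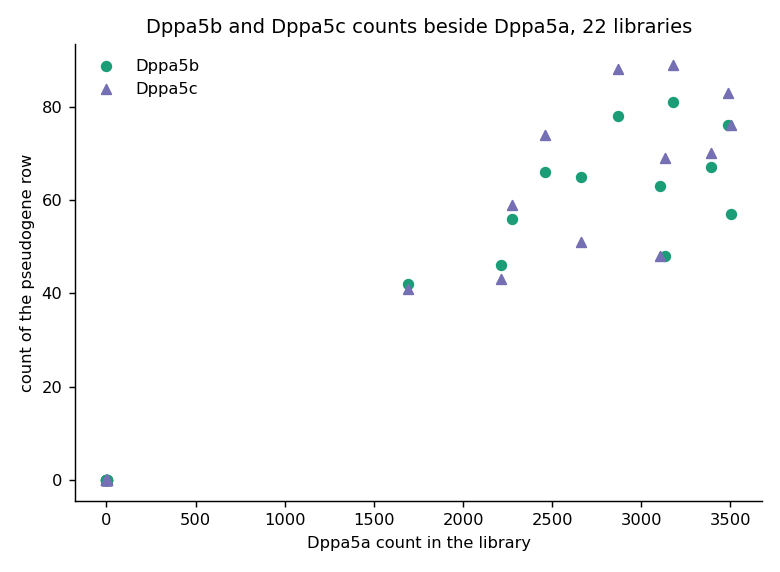
Count of Dppa5b (circles) and Dppa5c (triangles) on the vertical axis against the count of Dppa5a on the horizontal axis, 1 point per library, 22 libraries. The 12 naive and reverted libraries lie at the right, and the others sit at 0 for both pseudogenes.

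Levels of different genes were compared only per kilobase of exon. In the naive library Dppa5a stood at 1813 CPM per kb, L1td1 at 90.5, Dppa3 at 55.3, Tcl1 at 41.7, Dppa4 at 35.5, Dppa2 at 18.7, Ooep at 18.4 and Khdc3 at 10.3 CPM per kb. Dppa5a was thus far above the others, and Dppa2 and Ooep were side by side. In the d16+10p group the mean was 1731 CPM per kb for Dppa5a, 95.7 for Dppa3, 85.3 for L1td1, 49.7 for Tcl1, 29.7 for Dppa4, 28.2 for Ooep, 27.9 for Dppa2 and 12.8 for Khdc3. The ranges over the 7 libraries overlapped between each pair of neighbours in this order except Dppa5a and Dppa3. In the primed libraries L1td1 led with a mean of 70.2 CPM per kb, and the other 7 members were at 1.04 CPM per kb or less in each library. The primed libraries thus held little of 7 of the members, while L1td1 was also abundant in primed cells. Whether any member is specific to ESCs among other cell types was not tested.

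All 8 members passed the filter on low counts in the fit of the 22 libraries. A gene that passes only through the groups where it is high had to differ from the others, so the counts of members below describe them and are no support for anything. Comparisons with the primed group share its 2 libraries.

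DPPA2 and DPPA4 come first, as the chromatin regulators of the set. Dppa2 was at 45.8 CPM in the naive library, 1.12 and 0.644 CPM in primed Oct4GIP and 129/MSM (3 and 2 counts), and 141, 153, 179 and 154 CPM in AICAR d16+2p, AICAR+LIF d16+2p, AICAR d16+3p and AICAR+LIF d16+3p. At d16+10p it ran from 46.4 CPM (AICAR) over a median of 68.4 to 99.7 CPM (metformin+LIF). Every d16+2-3p library was above every d16+10p library, and the primed libraries were close to 0. Dppa4 was at 58.9 CPM in the naive library, 0 counts in both primed libraries, 92.7, 94.6, 118 and 102 CPM in the same 4 libraries of 2 and 3 passages, and from 27.3 (AICAR+LIF) over 44.3 to 75.3 CPM (129/MSM AICAR) at d16+10p. The d16+2-3p libraries were again all above the d16+10p libraries.

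The cultures of d8 and d16 held almost none of either transcript. Dppa2 had 0 counts in all 4 d8 libraries, 7 counts in Basal d16 (1.30 CPM), 1 count in AICAR+LIF d16 and 0 in 2iL d16 and AICAR d16. Dppa4 had 0 counts in each of the 8 cultures. In bulk RNA fewer cells of a type and less RNA per cell cannot be told apart, here and in each result that follows.

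DPPA3, tied to DNA methylation, showed another order. Dppa3 was at 49.3 CPM in the naive library, 0 in both primed libraries, 49.9, 48.4, 23.6 and 13.1 CPM in AICAR d16+2p, AICAR+LIF d16+2p, AICAR d16+3p and AICAR+LIF d16+3p, and from 23.1 (129/MSM AICAR) over 112 to 129 CPM (A769662) at d16+10p. The d16+3p libraries were below those of d16+2p, and the groups overlapped because both 129/MSM libraries (23.1 and 31.0 CPM) and A769662+LIF (49.1 CPM) were low. It had 1 count in AICAR+LIF d8 and 0 in the other 7 cultures.

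Of the KH-domain group, Dppa5a had the steadiest level. It was at 1122 CPM in the naive library, 964, 867, 842 and 971 CPM in the libraries of 2 and 3 passages (order as above) and from 763 (metformin+LIF) over 1112 to 1287 CPM (129/MSM AICAR) at d16+10p, against 1 and 2 counts in the primed libraries. The coefficient of variation at d16+10p was 16.1%, the lowest of the 8 members. At d16 it had 1 count in each of Basal, AICAR and AICAR+LIF and 0 in 2iL, and at d8 it had 0 in all 4.

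Ooep was at 39.4 CPM in the naive library, 0 in both primed libraries, 44.0, 51.5, 53.3 and 43.8 CPM in the libraries of 2 and 3 passages, and from 32.4 (AICAR) over 39.5 to 125 CPM (129/MSM AICAR) at d16+10p. The other 129/MSM library had 108 CPM, so both libraries of that line stood above all of Oct4GIP, whose highest value at d16+10p was 46.4 CPM. Khdc3 was at 21.1 CPM in the naive library, 0 in both primed libraries, 12.3, 12.2, 18.7 and 13.5 CPM in the libraries of 2 and 3 passages, and from 7.23 (A769662+LIF) over 17.9 to 51.1 CPM (129/MSM AICAR+LIF) at d16+10p. Its d16+10p range enclosed the whole range of 2 and 3 passages. In the cultures Ooep had 6 counts in Basal d16 and 1 in 2iL d8, and Khdc3 had 1 count in Basal d8 and 1 in AICAR d16.

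Tcl1, the AKT coactivator, was at 76.9 CPM in the naive library, 0 in both primed libraries, 29.2, 29.0, 74.7 and 71.5 CPM in AICAR d16+2p, AICAR+LIF d16+2p, AICAR d16+3p and AICAR+LIF d16+3p, and from 57.1 (metformin+LIF) over 93.9 to 127 CPM (AICAR+LIF) at d16+10p. The d16+2p pair was below every other naive or reverted library. Among the cultures it had 1 count, in AICAR+LIF d16.

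L1td1 was at 287 CPM in the naive library, 301 CPM in primed Oct4GIP and 144 CPM in primed 129/MSM, 494, 494, 576 and 675 CPM in the libraries of 2 and 3 passages, and from 173 (AICAR) over 266 to 376 CPM (129/MSM AICAR+LIF) at d16+10p. The d16+2-3p libraries stood above all the others, and the primed libraries and the d16+10p libraries overlapped. In the cultures it had 3, 1, 3 and 5 counts at d8 and 21, 3, 1 and 3 counts at d16 (Basal, 2iL, AICAR, AICAR+LIF).

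For 7 members the naive level fell inside the d16+10p range. Dppa2 was the exception, with 45.8 CPM (95% counting interval 38.6 to 53.9) against a lowest d16+10p value of 46.4 CPM, which the interval holds. Against d16+2-3p it was below the range for Dppa2, Dppa4, L1td1 and Ooep, above it for Dppa5a, Tcl1 and Khdc3, and within it for Dppa3. The counting interval holds the nearest d16+2-3p value for Ooep (32.7 to 47.0 CPM), Tcl1 (67.4 to 87.2 CPM) and Khdc3 (16.3 to 26.9 CPM). With 1 naive library these positions were not tested.

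The step from primed cells to the cultures of day 8 asks what is lost when mEpiSCs are placed in Basal, 2iL, AICAR or AICAR+LIF. Basal and 2iL gave no reversion in the study, so the d8 group does not hold reversion media alone. Of the 8 members, L1td1 was lower in d8 than in primed cells, by a log2 change of -6.79 ± 0.62 (SE) with an adjusted p of 5.25e-07 in the edgeR test. Leaving out 1 library gave changes between -7.57 (without AICAR+LIF d8) and -6.17 (without primed Oct4GIP). Of the 18739 genes tested, 13.7% were lower. At an unadjusted p under 0.05 there were 3 members lower in edgeR (L1td1, Dppa2 with p of 0.0186 and Dppa5a with p of 0.0324), 2 in DESeq2 and 1 in limma voom. That threshold was passed by 7277 of the 18739 genes in edgeR, in either direction. In edgeR 0 members were higher, also at an unadjusted p under 0.05 and with DESeq2 and limma voom, against 14.0% of all genes. The other 7 members were at 5 or fewer counts over the primed group, and no fold is given for them. At the same step 7 of 8 shared pluripotency genes were lower and 1 was higher, with a median log2 change of -4.11 beside 0 over all genes, and Utf1 (at least 372-fold lower) and Sox2 (1.65 ± 0.34, adjusted p 0.00155) were at the ends. Of the feeder markers 6 of 10 were higher, with a median of 2.69 (2.39 with the gene at 0 in 1 group set at its bound). The part of MEF RNA in the fall of L1td1 was not tested.

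Between d8 and d16 edgeR called 0 members, as did DESeq2 and limma voom, while 26.3% of all genes were called. At an unadjusted p under 0.05 in edgeR Dppa2 was the 1 member (p of 0.0309, adjusted 0.0941), beside 7023 of the 18739 genes. Its 8 counts over the d16 group were 7 in Basal and 1 in AICAR+LIF. Feeder markers were higher in 7 of 10. A comparison of AICAR with no AICAR in the 8 cultures called 9.60% of 14026 genes (1347), and 0 of the 8 members passed its filter, so none was tested. Of the calls 36.9% were higher with AICAR, and 54.4% when libraries were scaled by their totals alone. The number of calls depended on the libraries: it was 245 without AICAR d8, 394 without Basal d8, 613 without 2iL d8, 442 without AICAR+LIF d8, 736 without Basal d16, 2654 without 2iL d16, 638 without AICAR d16 and 415 without AICAR+LIF d16.

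At d16 the study looks for cells that regained pluripotency. Pou5f1 had 57 counts in AICAR+LIF d16, which is 2.58% of its mean in the Oct4GIP libraries of d16+10p, and 12, 2 and 4 counts in AICAR, 2iL and Basal d16. In AICAR+LIF d16 L1td1 was at 0.477% of that mean (3 counts) and Dppa5a at 0.0365% (1 count). Dppa5a, the most abundant member in the reverted cells, thus had a smaller share than Pou5f1 in that culture, and the difference was not tested.

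Expansion in 2iL separates d16 from d16+2-3p, and so does treatment. The d16 group also holds the Basal and 2iL cultures, while d16+2-3p holds AICAR and AICAR+LIF only. All 8 members were higher after 2 or 3 passages, beside 33.2% of all genes higher and 37.9% lower, with a median log2 change over all genes of -0.15. Against the d16 cultures Dppa4 was at least 465-fold and Dppa3 at least 158-fold higher, with the floor of 3 counts taken over the group. The ratio of pooled levels was 4201 for Dppa5a (interval 1437 to 20370), 690 for Tcl1 (124 to 27269) and 194 for Khdc3 (34.8 to 7653), each with 3 or fewer counts at d16. It was 274 for L1td1 (190 to 413), 268 for Dppa2 (136 to 622) and 110 for Ooep (50.5 to 300), and these 3 rest on Basal d16, which held 21 of the 28 counts of L1td1, 7 of the 8 of Dppa2 and all 6 of Ooep in the d16 group. Feeder markers were lower in 10 of 10 at the same step, with a median log2 change of -8.68 (-7.90 with bounds), and the part of that change in the members' ratios was not tested.

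Reverted cells were next set against primed cells, the comparison on which the change of state rests. All 8 members were higher in d16+2-3p than in primed cells, where 18.0% of all genes were higher, and 7 of 8 were higher in d16+10p, where 16.7% were. Against primed cells Dppa4 was at least 195-fold higher in d16+2-3p and at least 94.2-fold higher in d16+10p, Dppa3 at least 66.4-fold and 168-fold, Tcl1 at least 96.6-fold and 175-fold, Ooep at least 92.3-fold and 113-fold, and Khdc3 at least 27.1-fold and 51.9-fold. Dppa5a, with 3 counts over the primed group, had a pooled ratio of 1763 (603 to 8549) in d16+2-3p and 2056 (704 to 9972) in d16+10p. Dppa2, with 5 primed counts, had ratios of 180 (77.2 to 555) and 81.9 (35.1 to 252). Scaling by library totals alone shifted the median over all genes to -0.17 in the first comparison and -0.11 in the second, which is small beside these ratios.

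L1td1 differed from the rest of the set. In d16+2-3p it was higher than in primed cells by 1.31 ± 0.47 on the log2 scale (adjusted p 0.0343, 4 of 4 libraries above both primed libraries). In d16+10p the difference was 0.30 ± 0.42 (adjusted p 0.619), or -0.14 without primed 129/MSM and 0.93 without primed Oct4GIP. The first of these calls was not kept without AICAR+LIF d16+2p (1.32, adjusted p 0.052), AICAR d16+3p (1.28, 0.0614) or AICAR+LIF d16+3p (1.19, 0.077), nor without TMM (1.17, 0.0616), where the change was of similar size. The change was smaller, and not called, without primed 129/MSM (0.88) and without all 129/MSM libraries (0.84). It was larger without primed Oct4GIP (1.94).

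The same reverted libraries held the other genes of naive and primed pluripotency as follows. Naive transcription factors were higher than in primed cells in 9 of 9 in both comparisons, with a median log2 change of 6.53 in d16+2-3p and 6.49 in d16+10p. The medians over all genes were -0.04 and -0.01. Zfp42 was at the top in d16+10p (10.20 ± 0.56) and Klf5 at the bottom (2.66 ± 0.38). Primed markers were lower in 5 of 8 in d16+2-3p and in 6 of 8 in d16+10p, with medians of -3.35 and -3.92. Of the feeder markers 5 and 8 of 10 were lower with edgeR and DESeq2, and 2 of 10 in both comparisons with limma voom. Primed 129/MSM held 534 CPM of them and primed Oct4GIP 32.1 CPM, and the part of either library in these calls was not tested.

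Relatives and partners of the members were read from lists. Of the KH-domain relatives and genes of the subcortical maternal complex, 8 of 9 were in the table and 3 were tested. In d16+10p against primed cells Nlrp4f was at least 80.8-fold higher (0 counts in primed cells, a mean of 41.0 CPM at d16+10p), Tle6 was higher by 1.43 ± 0.50 and Zbed3 lower by a log2 change of -1.59 ± 0.22, with a median of 1.43 over the 3. The other members of that complex, Nlrp5 and Padi6, had 13 and 2 counts over the 7 libraries of d16+10p. Of the Tcl1 family and its AKT partners, Akt2 was higher by 0.83 ± 0.20, and Mtcp1 (-1.34 ± 0.47) and Akt1 (-0.84 ± 0.27) were lower. Without primed Oct4GIP the calls of Tle6 (0.94, adjusted p 0.297), Akt2 (0.61, 0.0799) and Mtcp1 (-1.25, 0.15) were lost. That of Tle6 was also lost, at a similar or larger change, with no filter (1.41, 0.0622) and with d16+10p limited to AICAR and AICAR+LIF of Oct4GIP (1.70, 0.0759), a limit that ended those of Mtcp1 (-1.47, 0.101) and Akt1 (-0.58, 0.231) as well. The call of Mtcp1 was also lost, with a change of similar size, without primed 129/MSM (-1.43), without all 129/MSM libraries (-1.64) and without AICAR+LIF d16+10p (-1.24, adjusted p 0.051). That of Akt1 was lost, with a smaller change, without primed 129/MSM (-0.29) and without all 129/MSM libraries (-0.30). The 5 Tcl1b genes, next to Tcl1 in the genome, had between 1 and 5 counts each over the d16+10p group, where Tcl1 had 1719.

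Of the neighbours outside the set, 16 were in the table and 8 were tested, and in d16+10p against primed cells 4 were higher and 1 lower, beside 16.7% of all genes higher and 19.9% lower. Gdf3, 16323 bases from Dppa3, was near 0 in primed cells (3 counts) and at means of 118 and 99.9 CPM in d16+2-3p and d16+10p. It was higher in d16+10p than in primed cells (adjusted p 1.17e-09). Patj, 7131 bases from L1td1, was lower in d16+10p than in primed cells (-3.10, adjusted p 4.3e-05). Ddx43, beyond Ooep, was higher (3.06, adjusted p 0.00532), a call that was lost without primed Oct4GIP (2.14). It was also lost with the limited d16+10p group (2.53, adjusted p 0.0644). The fitted change was 7.77 without primed 129/MSM, where the remaining primed library had 0 counts. Gm20509, which overlaps Khdc3 and shares sequence with it, was higher (2.47, adjusted p 0.0182), but not called without primed Oct4GIP (1.90, 0.175). Rsl24d1, 8988 bases from Khdc3, was higher (0.50, adjusted p 0.0305), but not called without primed Oct4GIP (0.39), primed 129/MSM (0.63) or all 129/MSM libraries (0.64). Nor was it called without metformin+LIF d16+10p (0.44, adjusted p 0.0608), without TMM (0.41, 0.0871), without a filter (0.49, 0.11) or with the limited d16+10p group (0.38, 0.265). Apobec1 (0.0426) and Rab27a (0.0292), not called with all libraries, were called without primed Oct4GIP, and Rab27a also without 129/MSM AICAR+LIF d16+10p (0.0219).

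Promoters were available from RefSeq (GRCm38.p6) for 4 of the 8 members, namely Tcl1, L1td1, Ooep and Khdc3. That of L1td1 is printed because this gene alone was also high in primed cells, and that of Khdc3 because it had no CG dinucleotide. Each line gives the 250 bases before the RefSeq start, for L1td1 at chr4:98726504-98726753 (plus strand) and for Khdc3 at chr9:73102148-73102397 (plus strand), with CG in capitals. The RefSeq starts differ from the GENCODE coordinates given above, so the window of Khdc3 lies inside its GENCODE span, and that of L1td1 runs past the GENCODE start.
L1td1: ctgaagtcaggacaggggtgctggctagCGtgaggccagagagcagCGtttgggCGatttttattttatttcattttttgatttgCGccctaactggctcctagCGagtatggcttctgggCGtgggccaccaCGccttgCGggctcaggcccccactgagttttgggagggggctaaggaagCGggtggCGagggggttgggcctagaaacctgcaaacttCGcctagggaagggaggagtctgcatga
Khdc3: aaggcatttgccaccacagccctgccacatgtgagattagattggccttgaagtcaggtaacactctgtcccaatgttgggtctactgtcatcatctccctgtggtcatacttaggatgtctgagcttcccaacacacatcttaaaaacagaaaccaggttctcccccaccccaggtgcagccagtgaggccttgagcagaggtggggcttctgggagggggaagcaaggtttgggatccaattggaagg
Over the full 300 bases, L1td1 had 14 CG, a number reached by 36.3% of 32851 promoters, and Khdc3 had 0. Ooep had 15 and Tcl1 had 11, and the median over all promoters was 7. The letters ATGCAAAT (1.74% of promoters, both strands), TCAAGGTCA (0.423%) and TATAAA (13.6%) were in none of the 4 windows.

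Longer culture in 2iL is the contrast in which the members parted. Of all genes 4.61% were lower and 4.75% were higher in d16+10p than in d16+2-3p, and in edgeR 3 of the 8 members were lower and 0 higher. At an unadjusted p under 0.05 edgeR had 3 members higher and the same 3 lower, beside 4290 of the 18739 genes in either direction. Of the other tools DESeq2 called 0 higher and limma voom 1. Dppa2 had a mean of 157 ± 15.7 CPM (SD, n = 4) in d16+2-3p and 68.3 ± 21.0 CPM (n = 7) in d16+10p, a log2 change of -1.16 ± 0.25 (SE) with an adjusted p of 0.00629. Dppa4 went from 102 ± 11.4 to 49.4 ± 17.9 CPM, a change of -1.0 ± 0.25 (adjusted p 0.021). L1td1 went from 560 ± 86.0 to 271 ± 91.0 CPM, a change of -1.0 ± 0.32 (adjusted p 0.0493). For these 3 genes no d16+10p library reached the lowest library of d16+2-3p, and the share of all genes that part in this way was not counted.

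Without each of the 11 libraries in turn the log2 change stayed between -1.26 and -1.09 for Dppa2, -1.13 and -0.89 for Dppa4, and -1.10 and -0.90 for L1td1, while the calls of Dppa4 and L1td1 crossed the threshold. Dppa2 kept its call throughout, with a largest adjusted p of 0.03. Dppa4 lost it without AICAR d16+2p (0.052), AICAR+LIF d16+2p (0.0569), AICAR d16+3p (0.0747) or AICAR+LIF d16+3p (0.0561). L1td1 lost it without AICAR d16+2p (0.0919), AICAR+LIF d16+2p (0.0978), AICAR d16+3p (0.112), AICAR+LIF d16+3p (0.152), AICAR d16+10p (0.101), AICAR+LIF d16+10p (0.0939), A769662 (0.0931), A769662+LIF (0.0511) or metformin+LIF (0.0733), and also with DESeq2 (0.0712) and without TMM (0.0698). When d16+10p was limited to the 2 libraries of Oct4GIP with AICAR and AICAR+LIF, the treatments and line of d16+2-3p, the changes were -1.38 for Dppa2 (adjusted p 0.0976), -1.65 for Dppa4 (0.0218) and -1.58 for L1td1 (0.115). Without both d16+3p libraries they were -1.09 (0.105), -0.90 (0.206) and -0.84 (0.35).

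The other 5 members did not pass the test. The log2 change was 1.37 ± 0.50 for Dppa3 (adjusted p 0.0987), 0.94 ± 0.41 for Khdc3 (0.174), 0.90 ± 0.30 for Tcl1 (0.0766), 0.37 ± 0.39 for Ooep (0.642) and 0.28 ± 0.14 for Dppa5a (0.267). Tcl1 passed it without metformin+LIF (1.0, adjusted p 0.0456), with limma voom (0.98, 0.0215) and without both d16+3p libraries (1.68, 0.0167), and Dppa3 without 129/MSM AICAR (1.53, 0.0462) and without all 129/MSM libraries (1.71, 0.0143). These 5 estimates were above 0, against those of Dppa2, Dppa4 and L1td1 below it, but that of Ooep was below 0 without all 129/MSM libraries (-0.32) and with the limited d16+10p group (-0.36).

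**Figure D2:**
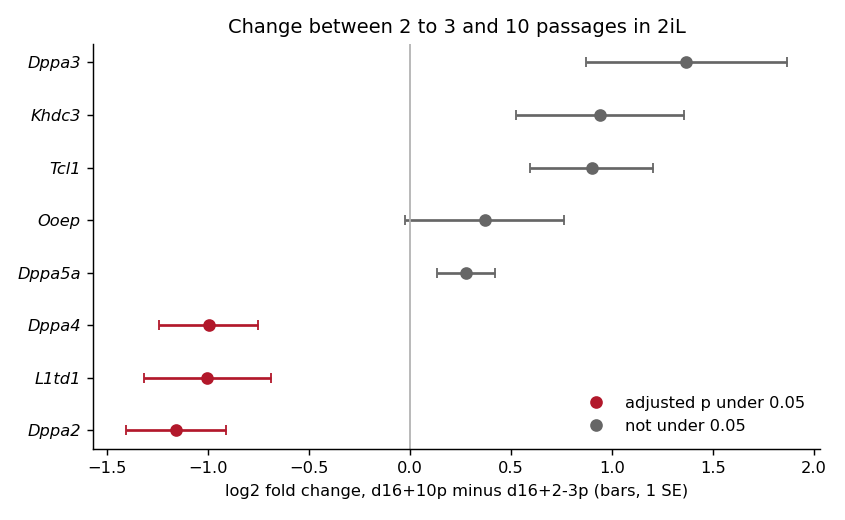
Log2 change of each member from d16+2-3p (4 libraries) to d16+10p (7 libraries) on the horizontal axis, with bars of 1 SE. Dppa2, Dppa4 and L1td1 lie between -1.16 and -1.0, and the other 5 lie above 0, of which Ooep lies below 0 without the 129/MSM libraries (-0.32).

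Genes of the 2-cell embryo, which DPPA2 and DPPA4 are known to activate, were read from a list of 15, of which 14 were in the table and 12 were tested. Summed over the 14 genes, the level was 82.9 CPM in the naive library, 1.87 and 0.966 CPM in the primed libraries, 487, 464, 342 and 20.8 CPM in AICAR d16+2p, AICAR+LIF d16+2p, AICAR d16+3p and AICAR+LIF d16+3p, and from 4.57 CPM (A769662+LIF) to 72.3 CPM (metformin+LIF) at d16+10p. In the cultures it was between 0 and 1.71 CPM. AICAR+LIF d16+3p was low in these genes while it held 154 CPM of Dppa2 and 102 CPM of Dppa4, so it stood with the d16+10p libraries for the list and with the d16+2-3p libraries for the pair.

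From d16+2-3p to d16+10p 10 of the 12 genes were lower, with a median log2 change of -3.60 beside -0.00055 over all genes. Zscan4f had the lowest value (-3.98 ± 0.74, adjusted p 0.00305) and Usp17lb the highest (-2.0 ± 0.72, adjusted p 0.107, and 0.0456 without AICAR+LIF d16+3p). Zscan4c, at -3.87 ± 0.71 (adjusted p 0.00282), was not called by limma voom (0.0831), and Usp17la, at -2.45 ± 0.42 (0.00102), was called in each alternative that tested it. DESeq2 called 10 of the 12 lower and limma voom 8. Leaving out 1 library at a time gave between 8 and 12 of these genes lower, and limiting d16+10p to the AICAR and AICAR+LIF libraries of Oct4GIP gave 1, Usp17la (-2.90, adjusted p 0.0457), while the changes of Zscan4c (-3.87, 0.126) and Zscan4f (-3.80, 0.108) were of similar size to those with all libraries. All 12 were higher in d16+2-3p than in primed cells (median 9.02, or 5.58 with the genes at 0 in primed cells set at their bound). In d16+10p against primed cells edgeR called 0 of 12 (7 at an unadjusted p under 0.05), DESeq2 called 6 higher and limma voom called 0, with a median of 5.36 (1.93 with bounds). Over all genes 8466 of 18739 were at an unadjusted p under 0.05 in that edgeR comparison, in either direction. The Zscan4 genes are close copies of each other, so reads may be split between their rows.

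**Figure D3:**
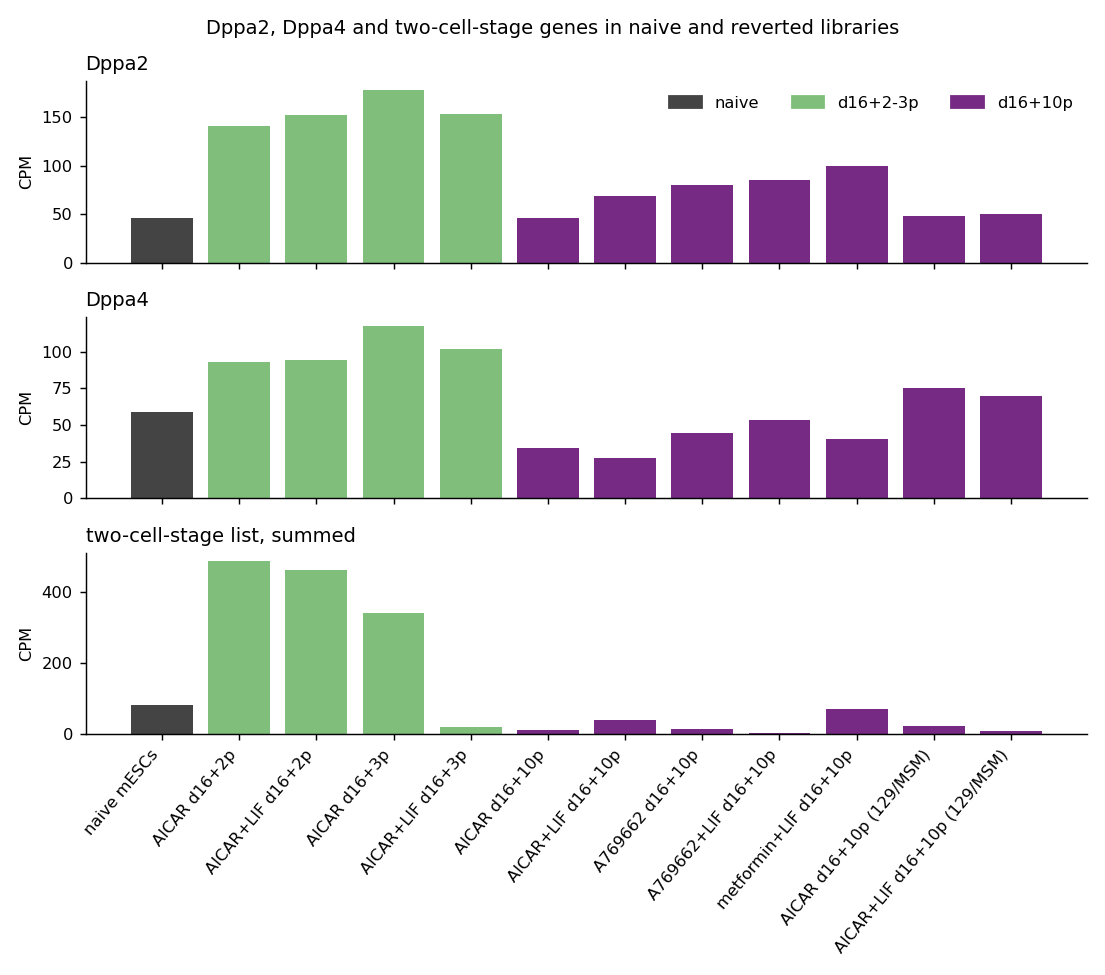
Summed CPM of the 2-cell-stage genes beside the levels of Dppa2 and Dppa4 in the naive and reverted libraries. AICAR+LIF d16+3p, with a sum of 20.8 CPM, is low for the list and high for Dppa2 and Dppa4.

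Other early-embryo and ESC-associated transcripts, 13 of 14 in the table and 12 tested, did not move as 1 group. From d16+2-3p to d16+10p 3 were lower, with a median of -0.28. Dnmt3l, which helps new DNA methylation, went from a mean of 353 to 13.0 CPM (-4.71 ± 0.54, adjusted p 0.000136), Eras, a RAS relative of embryonic stem cells, from 21.4 to 2.91 CPM (-2.79 ± 0.43, 0.00122), and Trim28, a corepressor, had a change of -0.45 ± 0.12 (0.0196), which was not called without AICAR d16+3p (-0.42, 0.0641), AICAR+LIF d16+3p (-0.39, 0.0779) or both d16+3p libraries (-0.32, 0.312), nor with d16+10p limited to AICAR and AICAR+LIF of Oct4GIP (-0.52, 0.179). Against primed cells 11 were higher in d16+2-3p (median 4.63, or 3.68 with bounds), and 11 were higher and 1 lower, Eras, in d16+10p (median 4.19, or 3.24 with bounds). Dppa1, another gene of the name, had 8 counts over the d16+2-3p group, 2 over the d16+10p group and 0 elsewhere. Shared pluripotency genes had 2 of 8 lower and naive transcription factors 2 of 9 higher (Prdm14 by 1.69 ± 0.27 and Tfcp2l1 by 0.96 ± 0.23) from d16+2-3p to d16+10p. With the same limit neither was called (1.47, adjusted p 0.0653, and 1.03, 0.124), nor was Tfcp2l1 without both d16+3p libraries (0.98, 0.115). Over the same step the 10 feeder markers had a median of -1.49, with 1 lower in edgeR, 3 in DESeq2 and 0 in limma voom, and their sum was 85.6 and 91.2 CPM in the d16+2p pair, 9.91 and 6.56 CPM in the d16+3p pair and from 13.2 to 15.6 CPM over the d16+10p group. The 8 primed markers had a median of -0.58, with 1 lower by each tool. They summed to between 599 and 707 CPM in d16+2-3p libraries and from 178 to 696 CPM in d16+10p libraries. The highest at d16+10p was 129/MSM AICAR+LIF, and the next had 388 CPM. The same sum was 413 CPM in primed Oct4GIP and 1842 CPM in primed 129/MSM. Every d16+2-3p library was thus above primed Oct4GIP, so the sum gives no share of primed cells. Dnmt3b was the most abundant marker in each d16+2-3p library, and Lefty2 in 129/MSM AICAR+LIF d16+10p and the naive library. The part of feeder or primed cells in the changes of the members was not tested.

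The lines 129/MSM and Oct4GIP were compared over 3 matched pairs, namely primed, AICAR d16+10p and AICAR+LIF d16+10p. The primed pair is matched by state only: primed Oct4GIP was grown on fibronectin and primed 129/MSM on MEF feeders in another medium, with feeder markers at 32.1 and 534 CPM. The lines also differ in sex by their description, so a difference between them is not one of strain alone. In that fit 0.116% of 12954 genes were called (15), and 0 of the 8 members in edgeR, with 1422 genes at an unadjusted p under 0.05 and 213 genes called by DESeq2 and 17 by limma voom. Of the calls 80% were higher in 129/MSM with edgeR and 55.9% with DESeq2. At an unadjusted p under 0.05 edgeR had 2 members higher and 1 lower, and limma voom called 0 members. DESeq2 called 1 member lower, Dppa3 (-2.19, adjusted p 0.000314), and 1 higher, Ooep (1.65, 0.0178). In edgeR Dppa3 differed by -2.23 ± 0.30 (adjusted p 0.104), Ooep by 1.68 ± 0.29 (0.142) and Dppa4 by 1.22 ± 0.31 (0.242).

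The number of calls depended on the pairs, the tool and the filter. With no filter 929 genes were called, and of the members Dppa3 (-2.22, adjusted p 1.02e-07), Ooep (1.69, 0.000132) and Dppa4 (1.23, 0.035). Without the primed pair 1051 genes were called (8.11% of 12963), against 3 without the AICAR pair and 5 without the AICAR+LIF pair. Without the primed pair Dppa3 was lower in 129/MSM (-2.23 ± 0.20, adjusted p 0.000506), and Ooep (1.68 ± 0.19, 0.00142), L1td1 (1.01 ± 0.16, 0.00561) and Dppa4 (1.24 ± 0.21, 0.00829) were higher. Dppa2 (-0.22), Tcl1 (-0.39), Dppa5a (0.20) and Khdc3 (0.17) were not called. L1td1 was lower in 129/MSM among primed cells (144 against 301 CPM) and higher among reverted cells (349 and 376 against 173 and 185 CPM), and that difference was not tested.

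**Figure D4:**
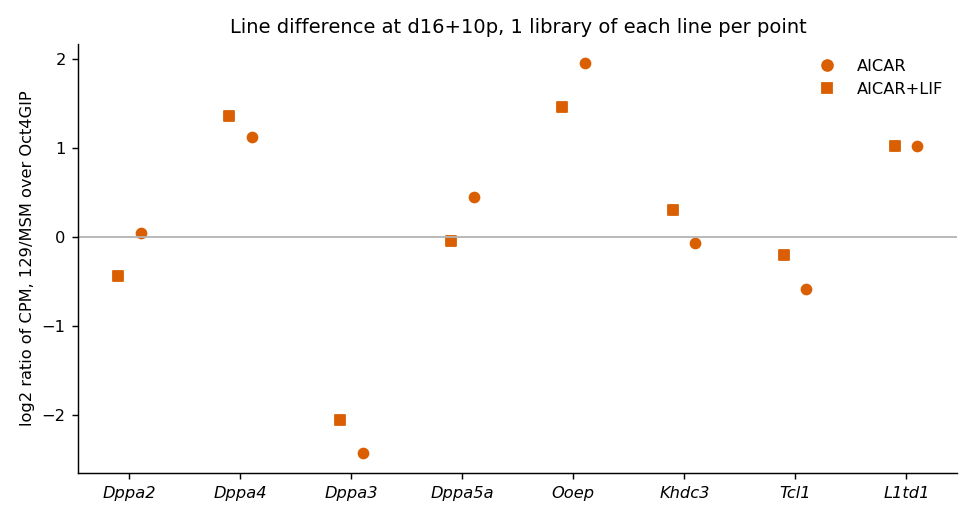
Log2 ratio of CPM in 129/MSM over Oct4GIP at d16+10p for each member, 1 point for the AICAR pair and 1 for the AICAR+LIF pair. Dppa3 is below 0 in both pairs, and Dppa4, Ooep and L1td1 are above 0 in both.

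The low Dppa3 count of 129/MSM came with a high count of its pseudogene. Dppa3-ps (chrX:37625647-37626097, minus strand) had 28 and 57 counts in the AICAR and AICAR+LIF libraries of 129/MSM at d16+10p, which is 49.1% and 71.3% of their Dppa3 counts. In the other 10 naive and reverted libraries the share was between 1.23% and 4.84%. With both rows summed, 129/MSM had 34.4 and 53.1 CPM against 128 and 132 CPM in Oct4GIP, so the ratio of Oct4GIP to 129/MSM was 3.73 and 2.49 in place of 5.37 and 4.15. Whether reads of 129/MSM Dppa3 were placed on the pseudogene row was not tested.

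Adding LIF to AICAR before expansion was tested over 4 pairs of the same line and passage. In edgeR 0 of 12940 genes were called (0%), and so 0 of the 8 members. At an unadjusted p under 0.05 there were 310 genes and 0 members in edgeR, 0 members in DESeq2 and 1 member higher in limma voom. After adjustment DESeq2 and limma voom called 0 genes. Khdc3 had the largest estimate among the members, 0.64 ± 0.32 (adjusted p 1). Its ratio of AICAR+LIF to AICAR was 0.991 at d16+2p, 0.723 at d16+3p, 2.32 at d16+10p in Oct4GIP and 3.01 at d16+10p in 129/MSM. The other 7 members had estimates between -0.14 (Dppa4) and 0.19 (Tcl1).

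The genes with the most similar profiles over the 22 libraries were found by Pearson's r on log2(CPM + 1), as a description over libraries that fall into high and low states. For Dppa2 they were 2410003L11Rik (0.992), Gm7896 and Gm14820 (both 0.991), and for Dppa4 Gm26639, Gm14820 and Gm26754 (all 0.996). For Dppa3 they were 8030474K03Rik (0.981), Gm4779 (0.979) and Calcoco2 (0.978). Dppa5a had Fmr1nb (0.998), Zfp42 and 2410141K09Rik (both 0.997), Ooep had Gm10324 (0.994), Gm48412 and Acsbg3 (both 0.993), and Khdc3 had Dppa5c (0.977), Gm13929 and Triml1 (both 0.976). Gm14820 was thus on the lists of both Dppa2 and Dppa4, and Gm13929 on those of Khdc3 and Tcl1. Tcl1 also had Fam25c (0.994) and Dppa5b (0.991), and L1td1 had Zscan10 (0.990), Zfp473 (0.974) and Hprt (0.972). Dppa5b and Dppa5c are the pseudogenes whose counts moved with Dppa5a, and the part of Dppa5a reads in them was not tested. Over the 12 naive and reverted libraries alone, 0 of the 3 genes remained for each of the 8 members. With Spearman's rank correlation over all 22 libraries, only 8030474K03Rik (Dppa3), Gm26639 and Gm14820 (Dppa4) and Acsbg3 (Ooep) remained. These lists thus depend on both the libraries and the measure.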

How the data were processed

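Bulk mRNA of 22 libraries was measured as single reads of 79 bases. The deposited table holds raw counts per Ensembl gene, which the authors made with bcl2fastq and Bowtie2 2.2.5 on GRCm38 transcripts. Counts were analysed in R 4.3.3 with edgeR 4.0.16: TMM scaling, filterByExpr by group, quasi-likelihood tests and Benjamini-Hochberg adjustment over all genes tested, with a threshold of 0.05. One fit of 22 libraries in 6 groups gave the comparisons between states, and smaller fits with a term for the day, the matched state or the pair gave those of AICAR, line and LIF. The members and gene lists were chosen with earlier results of these data known. From most lists the genes at the highest and lowest value were named, up to 4, and other named genes (such as Nlrp5, Padi6, Zscan4c, Usp17la and the neighbours) were chosen after their values were seen. For each member the 3 other genes with the highest r were named. The lists were feeder and fibroblast markers, shared pluripotency genes, naive transcription factors, primed epiblast markers, KH-domain relatives and the subcortical maternal complex, the Tcl1 family and its AKT partners, 2-cell-stage genes, and other early-embryo transcripts. Folds against a group at 0 used a floor of 3 counts over the group. The self-test was run on simulated data. Alternatives were DESeq2 1.42.0, limma voom 3.58.1, no TMM, other filters, no covariate, and leaving out libraries; limiting d16+10p to 2 libraries and leaving out both d16+3p libraries were chosen after seeing the data. Sequences came from GENCODE M21 (Python 3.11, Biopython 1.88) and RefSeq. Transcript-level counts were not used here.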

Additional observations from a re-analysis of the deposited data

Results flagged for a closer look

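Of 26 sets of a member and a group of at least 4 libraries, in which the values were not all equal, 6 had 1 library far from the others. All were among the 10 sets of the d8 and d16 cultures, with the other libraries at 0. At d8 these were Dppa3 in AICAR+LIF (1.92 CPM), Ooep in 2iL (0.391 CPM) and Khdc3 in Basal (0.343 CPM). At d16 they were Tcl1 in AICAR+LIF (0.372 CPM), Khdc3 in AICAR (0.309 CPM) and Ooep in Basal (1.11 CPM). Ooep in Basal d16 had 6 counts, and each of the others had 1 count, which is under the floor of 3 counts. Chance gives about 5% of sets of continuous values, but 1 library above others at 0 always stands apart, so the number 6 is not set against that share. Basal d16 is also the library with 7 counts of Dppa2 and 21 of L1td1, and it is the deepest, with 5290163 counts.

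For 3 members every pair of AICAR+LIF and AICAR differed in one direction at d16+2-3p and in the other at d16+10p. The mean log2 ratio at d16+10p minus that at d16+2-3p was 0.68 for Dppa3, 0.45 for Tcl1 and 1.64 for Khdc3. At d16+2p the ratios of AICAR+LIF to AICAR were 0.971 for Dppa3 and 0.991 for both Tcl1 and Khdc3, close to 1, and at d16+3p they were 0.556, 0.957 and 0.723, so the direction at d16+2-3p rests mostly on the d16+3p pair. Each group has 2 pairs, and the difference was not tested.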

How the results depend on the processing

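Of the results for single genes, 1083 kept their direction and side of the threshold, 58 lost a call, 18 gained one, 9 changed sign and 15 moved, the last being lists of similar genes. The changes of sign were in results with no call on either side. From d16+2-3p to d16+10p Ooep was at -0.32 without 129/MSM and -0.36 with d16+10p limited to 2 libraries. From primed to d16+10p L1td1 was at -0.38 without 129/MSM, -0.30 with the limited group and -0.14 to 0.93 without 1 library, the lowest without primed 129/MSM, and Apobec1, beside Dppa3, was at -0.59 without 129/MSM and -0.50 to 1.90 without 1 library, the lowest again without primed 129/MSM. Between the lines L1td1 was at -0.0604 to 1.01 and Khdc3 at -0.13 to 0.35 without 1 pair, the lowest of each without the AICAR+LIF pair. From d16+2-3p to d16+10p 1753 genes were called, against 504 with d16+10p limited to 2 libraries, 650 without both d16+3p libraries, and 939 to 1847 without 1 library (939, 965 and 1087 without AICAR d16+2p, AICAR+LIF d16+2p and AICAR d16+3p). Members lower (3) were 1, 0 and 1 to 3 in these. Members higher (0) were 1 with limma voom, without 129/MSM and without both d16+3p libraries, and 0 to 1 without 1 library. Of the 2-cell-stage genes 10 were lower, against 6 with a mean count of at least 10 and 1 with the limited group, where Zscan4c (-3.87) and Zscan4f (-3.80) kept changes of similar size. From primed to d16+10p 6863 genes were called, against 4275 with the limited group and 4462 to 6766 without 1 library, and from primed to d8 5190, against 2898 to 5374, with both minima without primed Oct4GIP. For AICAR 1347 became 2140 with DESeq2, 3143 with no filter, 37 with no day term and 245 to 2654 without 1 library. For the lines 15 became 213 with DESeq2, 929 with no filter, 0 with no state term and 3 to 1051 without 1 pair. Members higher there (0) were 1, 2 and 0 to 3, and members lower (0) 1, 1 and 0 to 1, with DESeq2, no filter and 1 pair left out. For LIF 0 became 68 with no filter. Fewer libraries or more genes tested enter these by construction, and the cause was not tested otherwise. Depth limits AICAR+LIF d8 most, where 3 counts are 5.75 CPM.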
